A study of Mus musculus with 42 samples.

Results

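A set of 10 genes of the Nrf2, glutathione and thioredoxin systems was followed after exposure of male mice to di(2-ethylhexyl) phthalate (DEHP), a plasticizer. Expression was read in their offspring. They were chosen by symbol, as a fixed list: Nfe2l2, Keap1, Nqo1, Hmox1, Gclc, Gclm, Txnrd1, Prdx1, Sod1 and Gpx4. All 10 were among the 12988 genes of the expression table. Of the 141251 tiles of the DNA methylation table, 61 lay within these genes or in the 2 kb on either side. A tile is a fixed stretch of 100 bases for which 1 methylation value is given.

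In the study, C57BL/6J male mice aged 8 weeks at the start received vehicle (control), 2.5 mg/kg/day (low) or 25 mg/kg/day (high) of DEHP for 67 days. They were then mated with females that had no exposure, so that the treatment of each group is that of its fathers. The labels give the offspring as wild type, male, C57BL/6 * DBA/2J, at embryonic day 7.5, and divide them into embryo and extra-embryo; sperm of C57BL/6 males was sampled as well. RNA was sequenced from 12 labelled samples. Another 30 were taken for RRBS (reduced representation bisulfite sequencing), an assay of cytosine methylation around CCGG sites. Expression values were given for 2 libraries each of control, low and high, and methylation values for 3 libraries of each. Column headings carry a treatment and a replicate number, and which tissue they stand for is not stated. The methylation values can thus not be assigned to embryo, extra-embryo or sperm. Nor do the labels say whether the libraries are separate litters or pools, so every p-value below measures only the spread between these libraries.

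Nrf2, encoded by Nfe2l2, is a transcription factor that is held in the cytoplasm and marked for degradation by Keap1, a protein whose reactive cysteines sense electrophiles and oxidants. When Keap1 is modified, Nrf2 escapes degradation, pairs with small Maf proteins and binds antioxidant response elements in the promoters of detoxification genes. Gclc and Gclm form the enzyme that makes the first, rate-limiting step of glutathione synthesis. Glutathione and thioredoxin are the main soluble thiol reductants of the cell, and the early embryo relies on both.

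Expression values are CPM as deposited (counts of a gene per 1000000 counts of the library), given below as control 1, control 2, low 1, low 2, high 1 and high 2. The columns summed to between 982921 (control 1) and 1017430 CPM (low 1), so the library size used was not the plain total. How it was set is not stated. The values were multiples of 1 smallest step per library, to within 0.01 of a whole number. This puts the totals at 153000000 to 194000000 steps. At that depth the member with the lowest CPM, Nqo1, still had 202 to 270 steps a library. Markers of the epiblast (7 of 7 listed) summed to between 1581 and 2527 CPM. Markers of visceral endoderm (8 of 8) summed to between 1095 and 2533 CPM, and those of extraembryonic ectoderm (6 of 8, with Elf5 and Wnt7b not among the genes listed) to between 64.7 and 127 CPM. Markers of embryonic cells and of visceral endoderm were thus present in every library. The extraembryonic ectoderm sum came largely from Cdx2 and Rhox5, while Gata3, Ascl2 and Esrrb stayed at or below 4.61, 5.05 and 7.02 CPM. In such bulk samples, fewer cells of a type and less RNA per cell cannot be told apart. Library low 1 stood apart in several markers of different cell types. It was the highest library for 6 of 7 epiblast markers (summing to 2527 CPM there) and 4 of 7 primitive streak and mesoderm markers. So it was for 2 of 3 giant cell, 2 of 6 trophoblast and 1 of 5 parietal endoderm markers. It was the lowest for 2 of 5 parietal endoderm, 1 of 7 primitive streak and 1 of 6 trophoblast markers. For all 8 visceral endoderm markers it lay within the others. The marker sums of the high libraries stood apart from the controls in part. They were lower for epiblast (1831 and 1581 against 1933 and 2272 CPM) and primitive streak (555 and 461 against 637 and 634 CPM). They were higher for trophoblast (116 and 127 against 97.5 and 64.7 CPM), blood and maternal decidua, and overlapped for the other lists. Control 1 had the highest parietal endoderm sum, at 1218 CPM. The part of cell types in the dose comparisons was not tested.

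Promoter sequences show where methylation was read in relation to an antioxidant response element, written here by its core TGACNNNGC on either strand. RefSeq sequences of the GRCm38.p6 build were matched for 8 of the 10 genes, with 13 start sites; Hmox1 and Gclc had none. In the 250 bases before the start, 5 of the 13 windows held the core (38.5%), against 10.2% of 32851 mouse promoter windows of that length. The core may overlap the AP-1 site TGACTCA, which was in 4.46% of those windows. In 3 of the 5 windows, the core lay inside a tile with methylation values, and these 3 are printed because the methylation result at Prdx1 concerns one of them. They are on the forward strand, and capitals mark the core, which is read on the opposite strand in all 3. Each stretch ends before the earliest transcript start that either annotation places inside its window.

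Gclm, chr3:122245307-122245486: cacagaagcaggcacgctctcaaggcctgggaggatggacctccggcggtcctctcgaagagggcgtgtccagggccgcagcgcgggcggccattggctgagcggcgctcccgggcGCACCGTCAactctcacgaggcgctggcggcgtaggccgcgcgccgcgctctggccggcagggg
Txnrd1 (the second of 3 starts), chr10:82858956-82859205: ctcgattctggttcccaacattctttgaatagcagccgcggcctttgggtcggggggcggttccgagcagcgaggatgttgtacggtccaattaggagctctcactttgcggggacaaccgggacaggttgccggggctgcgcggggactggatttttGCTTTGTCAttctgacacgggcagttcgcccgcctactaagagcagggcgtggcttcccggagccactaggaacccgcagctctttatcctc
Prdx1, chr4:116685349-116685543: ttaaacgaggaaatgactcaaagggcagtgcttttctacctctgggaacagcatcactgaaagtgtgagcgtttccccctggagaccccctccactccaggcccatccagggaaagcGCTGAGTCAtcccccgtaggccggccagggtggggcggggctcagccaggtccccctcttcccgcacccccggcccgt

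The printed Gclm stretch is dense in CpG dinucleotides, with 24 in 180 bases, of which 15 fall in the tile that holds the core. Its core, TGACGGTGC, begins 134 bases before the start at 122245557. The RefSeq gene entry places the start of Gclm further upstream, at 122245487, so the core is nearer to that one. The Txnrd1 stretch has 19 CpG in 250 bases and its core, TGACAAAGC, begins 92 bases before the second start. The Prdx1 stretch has 9 CpG in 195 bases, with 4 in the tile that holds the core TGACTCAGC, which begins 133 bases before the RefSeq start. The expression table places the start of Prdx1 further upstream, at 116685544. That core contains the AP-1 site, and another AP-1 match stands near the 5′ end of the same stretch. The core was also found for Nfe2l2 and Sod1, at places with no tile. A match in letters describes the sequence and does not show that a protein binds there.

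The first question was whether the paternal dose went with a different level of these genes in the offspring. None of the 10 passed an adjusted p of 0.05 in any comparison, by limma on log2(CPM + 1) with adjustment over the 12987 genes tested. Over all genes, 0.0% passed in low against control, 0.0077% (1 gene) in high against control and 0.0% in high against low. At an unadjusted p below 0.05 there was 1 member in low against control (Sod1; 4.87% of all genes), 1 in high against control (Keap1; 5.29%) and 0 in high against low (7.91%). Both dose comparisons use the same 2 control libraries, so they are not independent of each other.

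The differences of the members were small. Low against control, the log2 fold changes ran from -0.03 (Gpx4) to 0.39 (Hmox1), and 9 of the 10 95% confidence intervals stayed within a 1.5-fold change either way, Hmox1 being the exception. High against control they ran from -0.04 (Gclc) to 0.23 (Keap1), and all 10 intervals stayed within 1.5-fold. High against low they ran from -0.33 (Hmox1) to 0.23 (Gpx4), with 9 of 10 intervals within 1.5-fold and Hmox1 again outside. Folds on the log2(CPM + 1) scale understate the change of low genes, which here concerns Nqo1.

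**Figure D1:**
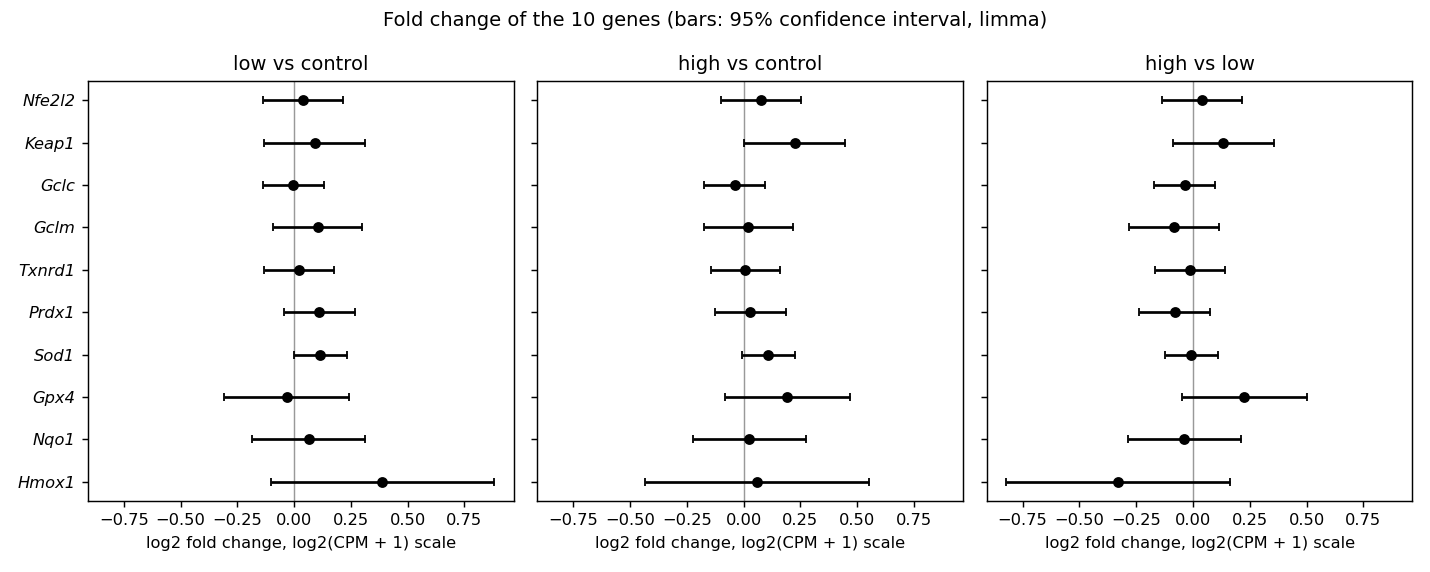
Log2 fold change on the log2(CPM + 1) scale (horizontal axis) with its 95% confidence interval for each of the 10 genes, in low against control, high against control and high against low, by limma. Most points sit near 0, and the interval of Hmox1 is the widest in each comparison.

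The direction of the members was counted without a test. Low against control, 8 of 10 effects were above 0 under the deposited scaling, after quantile normalization and with library medians made equal. All genes stood at 51.0%, 52.2% and 47.1% in that order. High against control, 9 of 10 were above 0 (58.6% of all genes) under the deposited scaling, but 6 after quantile normalization and 5 with equal medians, with all genes at 48.5% and 43.2%. High against low, 3 of 10 were above 0 under each of these scalings. All genes stood at 57.5% under the deposited scaling, 45.1% after quantile normalization and 44.2% with equal medians. The median member stood at 0.08 log2 in low against control and 0.04 in high against control, where the median of all genes was 0.00 and 0.02.

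Nfe2l2, the Nrf2 gene itself, lay on chromosome 2 at 75675513-75704641 on the reverse strand (ENSMUSG00000015839; coordinates as in the expression table, GRCm38). It measured 42.2, 44.9, 44.5, 44.9, 43.3 and 48.9 CPM. The 3 groups overlapped, and high 2 was the highest library. Its log2 fold change was 0.04 (SE 0.07) in low and 0.08 (SE 0.07) in high against control, with adjusted p of 0.970 and 0.890 by limma.

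Keap1, the sensor and inhibitor (ENSMUSG00000003308, chromosome 9, 21229730-21239361, reverse strand), measured 16.5, 15.1, 15.7, 18.2, 18.0 and 19.3 CPM. Both high libraries were above both controls, and the low libraries lay on either side of control 1. The group means were 15.8 ± 0.974, 17.0 ± 1.76 and 18.7 ± 0.862 CPM (SD, n = 2 each). High against control, the log2 fold change was 0.23 (95% interval 0.003 to 0.45), with an adjusted p of 0.866 by limma. It was between 0.17 and 0.28 when each of the 6 libraries was left out in turn. In low against control it was 0.09 (SE 0.09), and -0.01 without low 2.

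Gclc, the catalytic subunit of glutamate-cysteine ligase (ENSMUSG00000032350, chromosome 9, 77754535-77794485, forward strand), was the steadiest of the 10. It measured 53.2, 54.9, 55.2, 52.6, 52.2 and 53.0 CPM, a ratio of highest to lowest of 1.06. The SD of its log2 values over the 6 libraries was above that of only 2.80% of the genes tested. Its log2 fold change was 0.00 in low and -0.04 in high against control, with intervals of -0.14 to 0.13 and -0.17 to 0.10.

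Gclm, the modifier subunit that raises the catalytic efficiency of Gclc (ENSMUSG00000028124, chromosome 3, 122245557-122270732, forward strand), measured 23.1, 23.5, 26.4, 23.8, 22.4 and 24.9 CPM. Both low libraries were above both controls, though low 2 by only a little. The high libraries held the lowest and the second highest values. The log2 fold change was 0.10 (-0.09 to 0.30) in low and 0.02 (-0.18 to 0.22) in high against control.

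**Figure D2:**
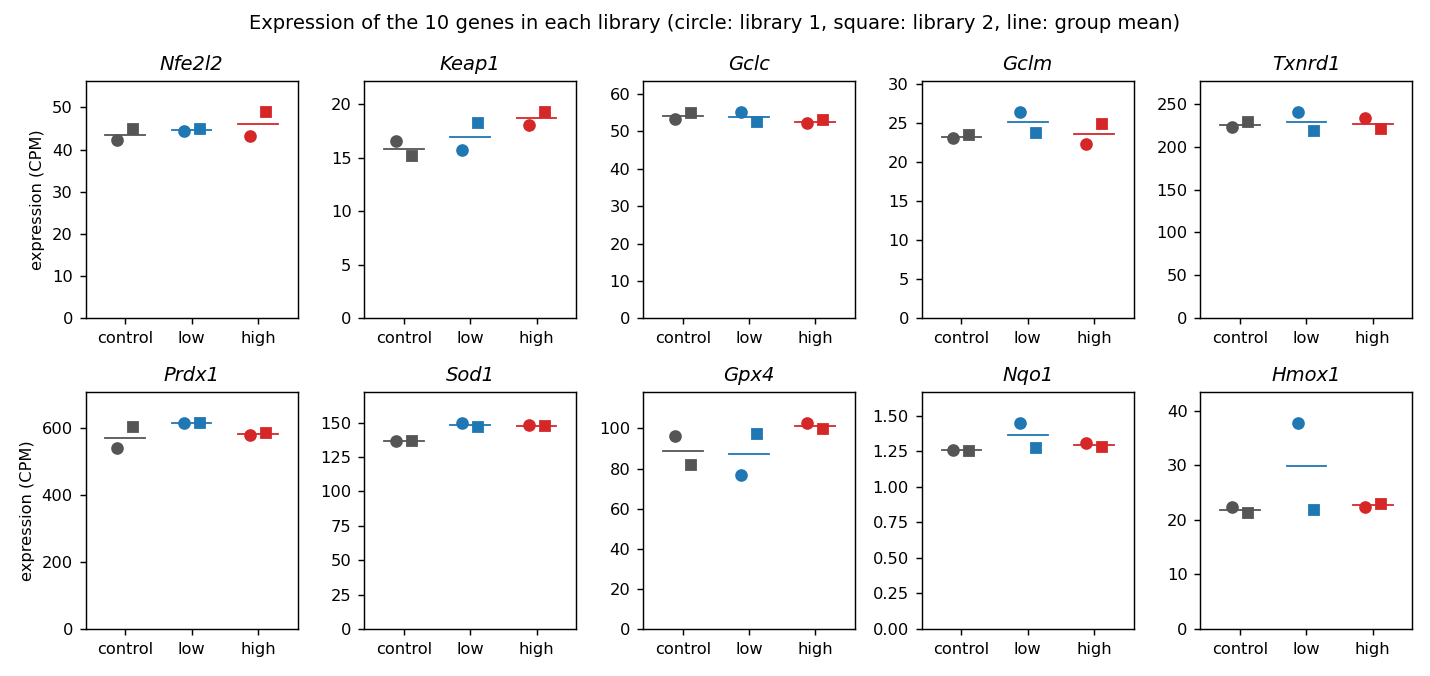
CPM (vertical axes, 1 panel a gene) of the 10 genes in each of the 6 libraries, by group, with points for libraries and a bar for the group mean. Hmox1 in low 1, at 37.8 CPM, is the one point far from the rest of its panel.

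Txnrd1, the cytosolic reductase that keeps thioredoxin reduced (ENSMUSG00000020250, chromosome 10, 82833951-82897712, forward strand), measured 222, 229, 240.5, 218, 233 and 221 CPM. The 2 low libraries were the highest and the lowest of the 6. The log2 fold changes were 0.02 and 0.01 in low and high against control, with intervals of -0.13 to 0.17 and -0.14 to 0.16.

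Prdx1, the cytosolic peroxiredoxin that reduces hydrogen peroxide with electrons from thioredoxin (ENSMUSG00000028691, chromosome 4, 116685544-116700822, forward strand), measured 538, 600.3, 613, 615, 578 and 583 CPM. Both low libraries were above all others, and the high libraries lay between the 2 controls. The log2 fold change was 0.11 (-0.05 to 0.27) in low and 0.03 (-0.13 to 0.19) in high against control. Without control 1, the lowest library, the first of these was 0.03.

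Sod1, the cytosolic copper-zinc enzyme that turns superoxide into hydrogen peroxide (ENSMUSG00000022982, chromosome 16, 90220754-90226329, forward strand), measured 136.9, 136.8, 149.9, 147.0, 148.0 and 147.4 CPM. All 4 libraries from exposed fathers were above both controls, and the low and high libraries overlapped. The group means were 136.88 ± 0.0875, 148.45 ± 2.09 and 147.71 ± 0.447 CPM (SD, n = 2 each). The log2 fold change was 0.12 (95% interval 0.000123 to 0.23) in low and 0.11 (-0.01 to 0.23) in high against control, with adjusted p of 0.928 and 0.866 by limma. Leaving out each library in turn gave 0.10 to 0.13 in low and 0.11 each time in high. Only 0.385% of all genes had a smaller SD within groups.

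Gpx4, the selenoenzyme that reduces lipid hydroperoxides in membranes with glutathione (ENSMUSG00000075706, chromosome 10, 80047166-80056439, forward strand), measured 96.2, 81.5, 76.96, 97.2, 102.9 and 99.9 CPM. Both high libraries were above the other 4, while control and low were each split between a higher and a lower library. The log2 fold change was 0.19 (-0.08 to 0.47) in high and -0.03 (-0.31 to 0.24) in low against control. High against low it was 0.23 (-0.05 to 0.50), with an adjusted p of 0.773 by limma.

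Nqo1, a quinone reductase that is a classic target of Nrf2 (ENSMUSG00000003849, chromosome 8, 107388225-107403206, reverse strand), was near the filter of 1 CPM. It measured 1.26, 1.25, 1.45, 1.27, 1.31 and 1.28 CPM. Each library from an exposed father was above both controls, low 2 by only a small margin. The log2 fold change was 0.06 (-0.18 to 0.31) in low and 0.03 (-0.22 to 0.27) in high against control.

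Hmox1, the inducible haem oxygenase that breaks haem down to biliverdin, iron and carbon monoxide (ENSMUSG00000005413, chromosome 8, 75093621-75100589, forward strand), varied most. It measured 22.3, 21.2, 37.8, 21.8, 22.4 and 23.0 CPM. Low 1 was 1.65 times the highest of the other 5, which spanned 21.2 to 23.0 CPM. Low 2 lay between the 2 controls, and both high libraries were slightly above both controls. The group means were 21.7 ± 0.765, 29.8 ± 11.3 and 22.7 ± 0.417 CPM (SD, n = 2 each). Its log2 fold change in low against control was 0.39 (SE 0.21; -0.10 to 0.88), with an adjusted p of 0.928 by limma.

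That value rested on low 1. Without it the log2 fold change of Hmox1 was 0.01. Without low 2, so that low 1 stood alone for its group and was assumed to vary like the others, it was 0.77 with an adjusted p of 0.0223 by limma, and -0.71 with an adjusted p of 0.0123 in high against low. Low 1 was the highest of the 6 libraries for 6 of the 10 members (Nqo1, Hmox1, Gclc, Gclm, Txnrd1 and Sod1) and the lowest for Gpx4. The same count was not made over all genes, so it has no background. Some of these maxima were by small margins, as for Gclc with a ratio of highest to lowest of 1.06. Of 5 giant cell and ectoplacental cone markers, 3 were in the table, and Prl2c2 and Tpbpa were not; the 3 summed to 95.3 CPM in low 1 and 52.8 CPM in low 2, against 31.2 to 49.8 CPM in the controls and 34.8 to 63.7 CPM in the high libraries. Of the 3, Prl3d1 was at 28.4 CPM in low 1 against 0.364 to 9.72 CPM in the other 5 libraries, and Plac1 at 24.4 CPM against 1.72 to 4.68 CPM, while Hand1, at 42.6 CPM, lay within the 28.7 to 56.8 CPM of the others. The 6 extraembryonic ectoderm and trophoblast markers summed to 89.9 CPM in low 1, within the 64.7 to 127 CPM of the others. Among them Tfap2c was higher there (19.4 CPM against 4.90 to 9.61 CPM), as was Ascl2, Cdx2 was lower (13.3 CPM against 29.6 to 52.6 CPM), and Gata3, Rhox5 and Esrrb lay within the others. The 7 epiblast markers summed to 2527 CPM in low 1 against 1581 to 2272 CPM in the others, with Utf1 at 1.43 and Pou3f1 at 1.33 times the next library. Of the 5 parietal endoderm markers, Lama1 and Col4a1 were lowest in low 1, and Sparc and Srgn lay within the others. Thbd was highest there (12.9 CPM against 1.08 to 8.16 CPM). The part of these cell types in the level of Hmox1 was not tested.

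Groups of 2 libraries that do not overlap are common in this table, and the members are read against that background. Low against control, 4 members lay wholly higher (Nqo1, Sod1, Gclm and Prdx1; 18.0% of all genes) and 0 wholly lower (17.2%), where 35.2% of all genes did one or the other. High against control, 5 lay wholly higher (Keap1, Nqo1, Hmox1, Sod1 and Gpx4; 23.5%) and 1 wholly lower (Gclc; 12.1%), against 35.6% of all genes in either direction. High against low, Gpx4 lay wholly higher (21.8%) and Prdx1 wholly lower (11.8%), against 33.6% in either direction. Nqo1 and Sod1 were wholly higher in both dose comparisons, which share the controls.

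The wider pathway was described from 8 lists with 125 other genes, of which 108 were tested. None of the 108 passed an adjusted p of 0.05 in any of the 3 comparisons by limma. At an unadjusted p below 0.05 there were 3 higher and 1 lower in low against control (3.7% of the 108; 4.87% of all genes). These were 7 and 1 in high against control (7.41%; 5.29% of all genes), and 7 and 4 in high against low (10.2%; 7.91% of all genes). Low against control, 69 of 108 effects were above 0, with 51.0% of all genes. High against control, 80 of 108 were above 0 under the deposited scaling, 65 after quantile normalization and 62 with equal medians, with 58.6%, 48.5% and 43.2% of all genes. Their median was 0.04 log2 in low and 0.05 in high against control under the deposited scaling, where that of all genes was 0.00 and 0.02.

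The thioredoxin and peroxiredoxin list holds mostly genes that reduce protein disulfides and peroxides, but also Txnip, Sesn1 and Sesn2. It had all 15 effects above 0 in low against control, with a median of 0.07, where 51.0% of all genes were above 0. The count was 15 under quantile normalization and equal medians too. In high against control 14 of 15 were above 0 under the deposited scaling (58.6% of all genes), Sesn1 being the other one, but 12 after quantile normalization and 11 with equal medians. High against low, 6 of 15 were, with 57.5% of all genes. None of these single effects had an unadjusted p below 0.05 against control. The 14 regulators of Nrf2, among them the ubiquitin ligase parts and small Maf partners, had 5 effects above 0 in low and 6 in high against control, with medians of -0.04 and -0.05. With either of the other scalings, 5 were above 0 in both.

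Genes for glutathione synthesis, uptake and recycling had 11 of 15 effects above 0 in low and 10 in high against control. For glutathione transferases and peroxidases these were 11 and 16 of 21, and for superoxide and peroxide enzymes 3 and 5 of 5. The NADPH supply list, which feeds both reductases, had 6 and 7 of 9. Haem, iron and conjugation genes had 10 and 13 of 16, and lipid peroxide and selenium genes 8 and 9 of 13. These are counts under the deposited scaling, where 51.0% of all genes were above 0 in low and 58.6% in high against control. The counts of high against control were lower under the other scalings. With equal medians they were 8 of 15, 12 of 21, 3 of 5, 4 of 9, 11 of 16 and 8 of 13 in the same order, where 43.2% of all genes were above 0. Slc7a11, the cystine importer that is a well-known target of Nrf2, was among the 17 listed genes that were not tested.

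**Figure D3:**
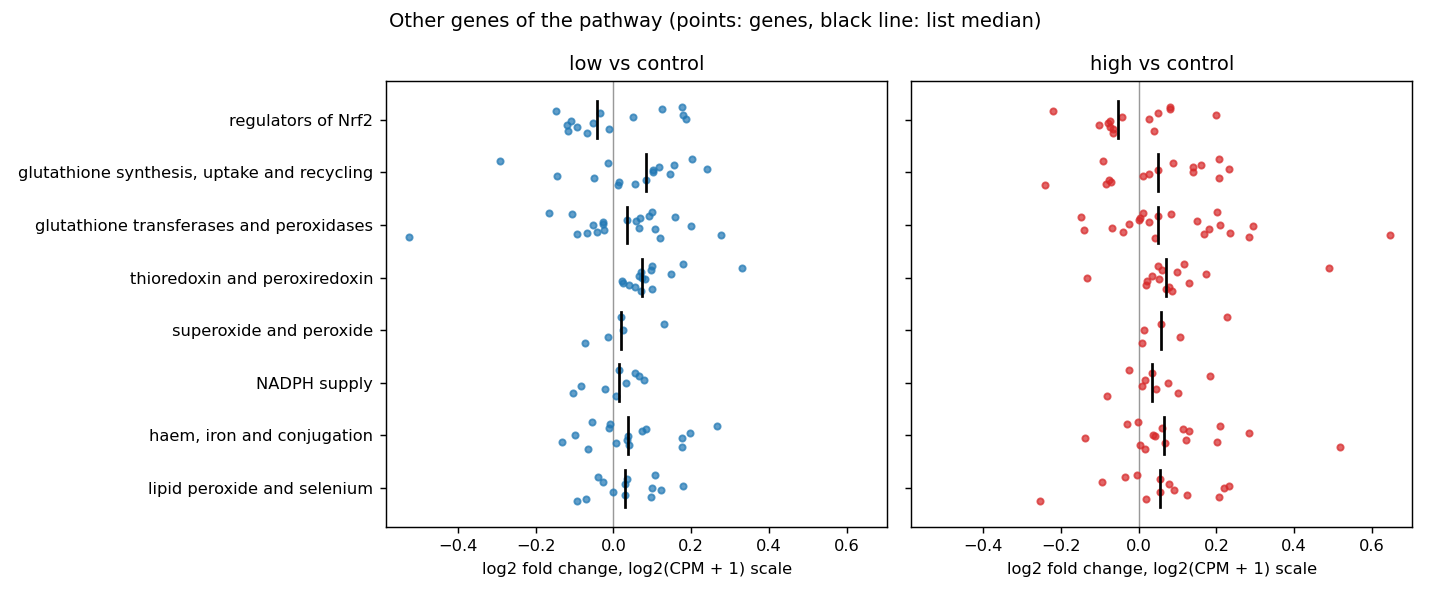
Log2 fold change on the log2(CPM + 1) scale (horizontal axis) for each tested gene (points) of the 8 pathway lists, in low and in high against control, with the list median marked. The 15 thioredoxin and peroxiredoxin genes lie above 0 in low against control, and the regulators of Nrf2 lie on both sides.

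Among the other pathway genes, Glrx5 had the smallest p in low against control. It encodes a mitochondrial glutaredoxin used in iron-sulfur cluster assembly. It measured 43.9, 41.9, 50.9, 50.9, 51.5 and 49.6 CPM, all 4 libraries from exposed fathers being above both controls. Its log2 fold change was 0.24 (SE 0.06) in low and 0.23 (SE 0.06) in high against control, with adjusted p of 0.928 and 0.866 by limma.

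Selenos, a selenoprotein of the endoplasmic reticulum, showed the same order, at 28.5, 27.0, 31.6, 31.5, 31.5 and 34.2 CPM. Its log2 fold change was 0.18 in low and 0.23 in high against control. Sqstm1, whose product p62 draws Keap1 into autophagy, measured 74.1, 69.9, 83.8, 79.1, 76.0 and 76.4 CPM, with a log2 fold change of 0.18 in low against control. The controls were the lowest 2 libraries for Sqstm1 too, and its adjusted p was 0.928 by limma.

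Gpx3, the secreted glutathione peroxidase, had the smallest p in high against control. It measured 56.6, 39.8, 53.1, 62.8, 73.3 and 76.4 CPM, with both high libraries above all others. Its log2 fold change was 0.65 (SE 0.15), with an adjusted p of 0.866 by limma. Control 2, the lowest library for Gpx3, also had the lowest sum of the 8 visceral endoderm markers. That sum was 2328 and 1095 CPM in the controls, 1780 and 2105 CPM in low and 1874 and 2533 CPM in high, and the part of that cell type in Gpx3 was not tested.

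High against low, the 3 smallest p-values were those of Akr1b8, Gpx2 and Idh1. Akr1b8, an aldo-keto reductase, measured 3.96, 3.81, 3.39, 3.54, 4.63 and 4.63 CPM, a log2 fold change of 0.33 (SE 0.09). Gpx2, a glutathione peroxidase known from epithelia, measured 4.72, 4.50, 2.01, 4.03, 6.76 and 5.01 CPM, a log2 fold change of 0.81 (SE 0.23). Idh1, which makes cytosolic NADPH, measured 25.9, 26.7, 23.8, 25.1, 27.8 and 28.8 CPM, a log2 fold change of 0.20 (SE 0.07). In all 3 genes the low libraries were the lowest and the high libraries the highest, and the adjusted p were 0.398, 0.419 and 0.458 by limma.

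The next question was whether methylation at these genes went with the paternal dose. Methylation is the percent of methylated cytosine calls per tile, as deposited. No coverage is given, so the depth behind each value is unknown. The tiles' coordinates fit the GRCm38 build: the 42022 tiles within 500 bp of its gene starts had a mean of 8.54%, and shifting them by 100000, 1000000 or 3000000 bp gave 33.7%, 37.2% and 37.7%. Of the 61 tiles, 15 were at Txnrd1, 8 each at Keap1 and Gpx4, 7 at Gclm, 6 at Gclc, 5 at Nfe2l2, 4 each at Prdx1 and Sod1, 3 at Hmox1 and 1 at Nqo1. Exons and introns were not annotated here, so tiles are placed by the distance of their centre from the nearest RefSeq start, taken from the promoter table or, for Hmox1 and Gclc, from the gene table.

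Near starts the members were little methylated. All 49 tiles within 1 kb of a start, at 9 of the 10 genes, had a mean below 25%, as did 90.9% of the 52892 such tiles in the table. Their median was 1.78%, and the tile means ran from 0.211% to 23.5%. The mean over the 49 tiles was 4.87% ± 0.566 in control, 4.88% ± 0.285 in low and 4.90% ± 0.320 in high (SD over libraries, n = 3 each). By gene, Gpx4 had the highest mean, at 9.997%, 8.74% and 10.4% in control, low and high, and Sod1 the lowest, at 0.781%, 0.633% and 0.922%.

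The tile with the highest mean near a start, 23.5%, was at Gpx4, at chr10:80053901-80054000 and centred 60.5 bp before a start; it was chosen for mention after its values were seen. It measured 33.9%, 31.6% and 20.7% in control, 24.7%, 17.1% and 18.9% in low and 25.8%, 23.8% and 15.2% in high, with overlap between the groups. Its difference of -8.54 percentage points in low against control was the largest near a start.

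Farther than 1 kb from a start, 11 of 12 tiles had a mean above 50%, and the other, at Gpx4, was below 25%. Their mean was 75.4% ± 1.49 in control, 76.2% ± 2.45 in low and 77.8% ± 0.542 in high. The only tile of Nqo1, inside the gene and 13354.5 bp from its start, was one of these. It measured 88.5%, 85.7% and 92.1% in control, 75.7%, 84.6% and 93.1% in low and 82.3%, 89.8% and 83.8% in high, with the groups overlapping.

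**Figure D4:**
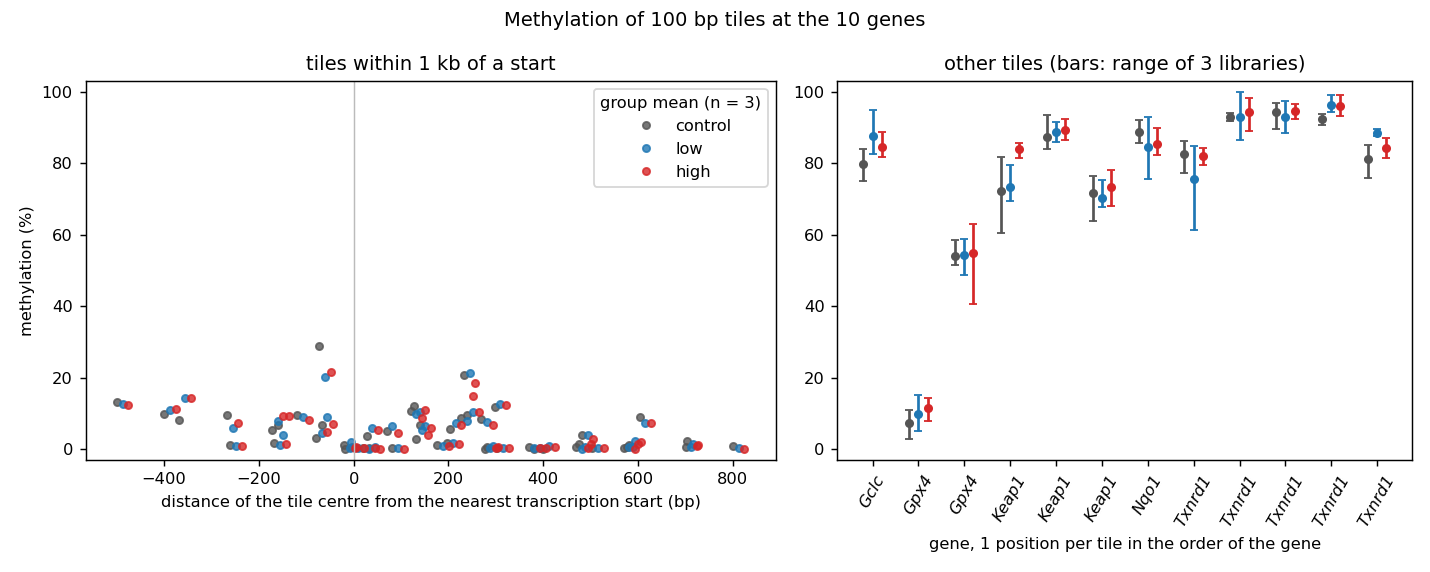
Methylation in percent (vertical axis) of the 61 tiles, with points for the group means, set slightly apart. Left, the 49 tiles within 1 kb of a start against their distance from it in bp; right, the 12 farther tiles by gene, with bars for the range of 3 libraries. The tiles near starts stay at the bottom of the scale, and 11 of the 12 farther ones have a mean above 50%.

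None of the 61 tiles passed an adjusted p of 0.05 by limma over all 141251 tiles, and 0.0% of all tiles did in each of the 3 comparisons. At an unadjusted p below 0.05 there were 2 of 61 in low against control (5.49% of all tiles), 1 in high against control (4.44%) and 2 in high against low (4.71%). Of the 49 tiles near starts, 47, 46 and 47 differed by less than 5 percentage points. With a median of 1.78%, most had little room for a larger fall. The count was not made over all tiles near starts, so it has no background. Low against control, 3 of the 61 lay wholly higher (5.26% of all tiles) and 4 wholly lower (4.27%). High against control, 1 lay wholly higher (5.16%) and 5 wholly lower (4.07%). High against low, 6 lay wholly higher (4.8%) and 4 wholly lower (4.76%).

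The Prdx1 tile at chr4:116685401-116685500, centred 148.5 bp before the RefSeq start, is the one that holds the core printed in capitals above. It measured 9.66%, 4.27% and 6.10% in control, 4.80%, 3.23% and 3.61% in low and 8.25%, 10.9% and 8.81% in high. All 3 high libraries were above all 3 low ones, and the controls spread over both. High against low, the difference was 5.44 percentage points (SE 1.46; 1.99 to 8.89), with an adjusted p of 0.948 by limma. Leaving out each of the 9 libraries in turn gave 4.65 to 5.98 points.

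The tiles with the core at Gclm and Txnrd1 showed no such separation. The Gclm tile, chr3:122245401-122245500, measured 12.5%, 8.25% and 8.18% in control, 11.6%, 7.41% and 8.32% in low and 8.45%, 8.70% and 7.64% in high. The Txnrd1 tile, chr10:82859101-82859200, measured 7.18%, 4.90% and 8.05% in control, 9.02%, 10.3% and 7.49% in low and 4.15%, 7.96% and 8.96% in high. The groups overlapped at both, and the high minus low difference was -0.849 points (-4.49 to 2.79) at Gclm and -1.90 points (-5.49 to 1.68) at Txnrd1.

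The tile with the smallest p in low against control was upstream of the same Txnrd1 start, at chr10:82858901-82859000, centred 255.5 bp before it. It measured 9.17%, 11.6% and 8.02% in control, 6.19%, 5.96% and 5.83% in low and 7.41%, 7.004% and 7.26% in high. Every control was above every high library, and every high library above every low one. The difference was -3.59 points in low (SE 0.938, interval -5.80 to -1.38) and -2.36 points in high against control. The adjusted p were 0.773 and 1 by limma. The adjoining tile upstream, chr10:82858801-82858900, differed the other way, by 6.26 points in low (-2.14 to 14.7) and 6.17 in high against control. The adjoining tile downstream differed by -0.534 and -0.303 points. The order of the groups at 1 tile was thus not shared by its neighbours.

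Keap1 had a tile of narrow spread at chr9:21239201-21239300, centred 81.5 bp after its start. It measured 4.96%, 5.45% and 5.01% in control, 6.30%, 5.85% and 7.26% in low and 4.42%, 4.36% and 4.71% in high. The low libraries were the highest 3 and the high libraries the lowest 3. High against low, the difference was -1.97 points (SE 0.610), with an adjusted p of 0.981 by limma. It was 1.33 points in low against control, with an adjusted p of 0.933.

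**Figure D5:**
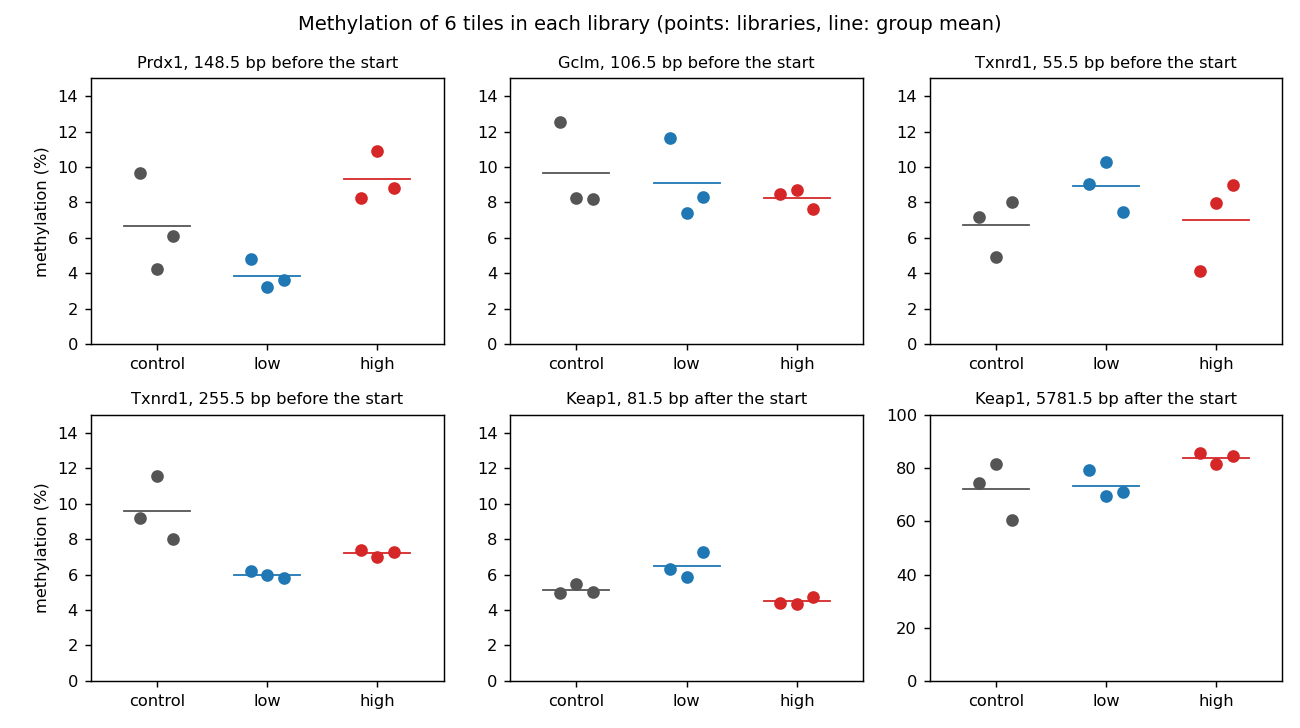
Methylation in percent (vertical axis) of named tiles in each of the 9 libraries by group, with a bar for the group mean, each panel titled by gene and distance from the nearest start in bp. At the Prdx1 tile 148.5 bp before the start the high libraries sit above the low ones, and at the Txnrd1 tile 255.5 bp before the start the controls sit above both doses.

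Of the tiles named for a small p, 3 lay well inside genes, where methylation was high. The Keap1 tile at chr9:21233501-21233600 measured 74.6%, 81.7% and 60.6% in control, 79.4%, 69.6% and 71.1% in low and 85.7%, 81.5% and 84.8% in high. Its difference in high against control was 11.7 points (SE 5.28), with an adjusted p of 1 by limma, and 5.86 to 16.4 points when each library was left out in turn. The Txnrd1 tile at chr10:82896201-82896300 measured 85.2%, 75.8% and 82.6% in control, 87.6%, 89.6% and 88.5% in low and 87.0%, 81.5% and 84.0% in high. All low libraries were above all others there, by 7.37 points over control in the mean, with an adjusted p of 0.868 by limma. The Txnrd1 tile at chr10:82887401-82887500 measured 90.7%, 93.8% and 92.5% in control, 99.1%, 94.4% and 95.5% in low and 95.6%, 93.2% and 98.96% in high. Control and high overlapped there, with a difference of 3.58 points.

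One more Txnrd1 tile, chr10:82859401-82859500, centred 244.5 bp after the second start, was named for its p in high against low. It measured 22.9%, 21.4% and 18.2% in control, 20.8%, 20.6% and 22.5% in low and 17.8%, 18.7% and 19.0% in high. The low libraries were all above the high ones, and the difference was -2.82 points.

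The tiles nearest to the starts of the other genes were low in every library. At Gclm, 6.5 bp before the start at 122245557 but after the other start at 122245487, 8 of the 9 libraries were at or below 1.08%. Low 2 was at 5.10% there. At Txnrd1 and Gpx4 the nearest tiles, 9.5 bp after and 8.5 bp before a start, ran from 0% to 1.16% and from 0% to 2.41%. Hmox1, 32.5 bp after its start, ran from 0% to 0.666%, and Sod1, 188.5 bp after, from 0.264% to 2.17%. Gclc, 215.5 bp after its start, ran from 4.64% to 7.92%, and Nfe2l2, 387.5 bp before, from 6.93% to 13.8%. At Gpx4, Sod1, Gclc and Nfe2l2 all groups overlapped. At the others the separations were within values near 0: the high libraries (0.370% to 0.890%) were above the controls (0% to 0.281%) at Gclm and above the low ones at Hmox1, and the controls were above both doses at Txnrd1.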

How the data were processed

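RNA expression was analysed in 6 libraries and RRBS methylation in 9. The submitters' processing notes name, with no role or order, edgeR, SAMtools, TopHat, Bowtie 0.12.2, methylKit, Bismark, Bowtie2 and Trim Galore, and the builds mm8 and mm10. The authors deposited expression as CPM per gene, as the column headers say. Methylation values are deposited as percent per tile of 100 bases, with no coverage given. Columns were put in groups by the treatment in their names.

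From these values, log2(CPM + 1) was tested for each gene that reached 1 CPM in no fewer than 2 libraries, with limma 3.58.1 (R 4.3.3), with a mean-variance trend and all 3 groups in 1 fit. For percent methylation the limma fit had no trend. P-values were adjusted by the Benjamini-Hochberg method over all genes or all tiles, with a threshold of 0.05, and the fits were checked on simulated data. Of the gene table, 3 lines without a gene name and 1 gene under the filter were left out. A share of 27.9% to 29.8% of each library's total lay in lines without a gene name. Starts and promoters are from RefSeq; the strand of Hmox1 and Gclc was entered by hand.

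All 10 genes are named, with the 3 other pathway genes and the 3 tiles of smallest p per comparison and the tile nearest to each start. The genes, lists and tests were chosen with earlier results of these data known. The alternatives tried were the pseudocount, filters, scaling, trend, fits on 2 groups, a replicate block, other tile windows and leaving out each library.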

Additional observations from a re-analysis of the deposited data

How the results depend on the processing

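Outside leave-one-out fits, the 30 log2 fold changes of the 10 genes were recomputed under 8 settings. Of 237 values, 230 kept their direction, 7 reversed and 0 passed the threshold. The filters, the trend, fits on 2 groups and the replicate block leave a fold change as it is. Only the pseudocount, quantile normalization and equal library medians could reverse one, so the other values do not test the direction. The reversals were all in high against control: after quantile normalization Nqo1 was -0.0040, Gclm -0.0158 and Prdx1 -0.00775, and with equal library medians Nqo1 was -0.0105, Gclm -0.0154, Txnrd1 -0.0275 and Prdx1 -0.00593. Leaving out each library reversed 18 of 180 values. The 180 include fits without a library of the group outside the comparison, which leave its fold change as it is and could not reverse it. Low against control, the ranges with a reversal were -0.00685 to 0.0831 for Nfe2l2, -0.00878 to 0.191 for Keap1, -0.0374 to 0.0303 for Gclc, -0.0484 to 0.0925 for Txnrd1 and -0.200 to 0.133 for Gpx4. High against control they were -0.00834 to 0.165 for Nfe2l2, -0.0544 to 0.0958 for Gclm, -0.0293 to 0.0464 for Txnrd1 and -0.0484 to 0.109 for Prdx1. High against low they were -0.0465 to 0.127 for Nfe2l2, -0.0942 to 0.0161 for Nqo1, -0.714 to 0.0540 for Hmox1, -0.0840 to 0.0570 for Txnrd1 and -0.0213 to 0.0072 for Sod1. The causes were not tested. The 1 member with an unadjusted p below 0.05 by limma in each dose comparison against control depended on the setting. In low against control the count was 0 with a pseudocount of 0.1, a mean of at least 5 CPM, no trend, either other scaling or the replicate block. In high against control it was 0 with no trend, either other scaling or the replicate block.

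Leaving out each library gave 0 to 1 called members in low against control and in high against low (Hmox1, without low 2, in both) and 0 to 0 in high against control. Over all genes it gave 0 to 65, 0 to 2 and 0 to 291 calls in low against control, high against control and high against low; the 65 and the 291 came without low 2. High against control called 1 gene, 0 without a trend, 0 with the replicate block and 2 in a fit of 2 groups, and high against low 9 in a fit of 2 groups. Over all tiles, the trend gave 1, 2 and 2 calls in low against control, high against control and high against low, the logit scale 1, 0 and 1, and leaving out each library 0 to 1, 0 to 1 and 0 to 0. Numbers in the column names gave no sign of a pairing of the libraries, though so few libraries cannot exclude one. Correlations of same-numbered deviations ran from -0.0727 to 0.0896 in expression and from -0.0329 to 0.0286 in methylation. The replicate block called 0 members. Count models on numbers rebuilt from the CPM steps were not run, so the steps serve only as an estimate of depth. A coverage minimum was not run because no coverage is given, which limits how far low methylation values can be told apart.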
